A study of Gallus gallus with 53 samples.

Results

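In chicken DT40 B cells, 93 microarray probe sets rose late after ligation of the B cell receptor (BCR), of 38361 probe sets in the table. These late onset probe sets were chosen by their measured values. A probe set belonged to the group when its mean level over all 53 columns exceeded 1.05 on the log2 scale, when its largest change after 10 μg/ml anti-IgM in wild type (WT) cells was a rise of at least 1 log2 unit (2-fold) reached at 60 or 90 min, and when its change at 30 min was under 0.4 of that rise. The level threshold left 26866 probe sets, of which 206 rose at least 2-fold at some time in that course and 153 had their largest rise at 60 or 90 min. The 30 min criterion kept out the other 60 of these 153. The rise and the 30 min criterion used the WT 0 min column and the 5 WT columns with 10 μg/ml anti-IgM, so values in those columns are given as a description. The WT 0 min column had the lowest median intensity of the 53 columns, 2.74, the highest being 2.95. Centring each column on its median left 72 of the 93 in the group, so part of the membership depends on this baseline. The 9 other stimulation courses, on which tests were run, entered the choice through the mean level alone. Leaving the 5 columns of any 1 course out of that mean would have kept all 93 probe sets, except that probe set 3 fell under the threshold without the IKKβSA columns with anti-IgM (mean 1.03). On the 6 WT columns of the rise criteria alone, all 93 stood above it.

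DT40 is a B cell line from a bursal lymphoma of the chicken. The arrays covered IKKβSA cells, a knock-in of the S176/181A form of IKKβ that cannot be activated, WT cells given the MEK inhibitor U0126 for 30 min before the stimulus (WT + Inh; 5 mM in the labels, 5 μM in the study's methods), and untreated WT cells. IKKβSA and WT + Inh cells were given anti-IgM (the antibody M4) at 10 μg/ml or CD40 ligand (CD40L, a GST fusion of chicken sCD154) at 6 μg/ml. WT cells were given anti-IgM at 0.1, 1 or 10 μg/ml, or CD40L at 1, 3 or 6 μg/ml. Cells were taken 15, 30, 45, 60 and 90 min later. A 0 min column existed for each of the 3 cell conditions. The labels list the inhibitor and IKKβSA as separate conditions, and a sentence of the methods can be read as giving the inhibitor to IKKβSA cells too, which the sources used here do not settle. Each column combined 2 biological replicates, with 1 column per condition and time, so no spread between cultures was available. All later columns were stimulated, so within 1 course drift with time in culture cannot be told apart from a response to the stimulus. Drift common to all WT courses would enter the anti-IgM and CD40L courses alike. At 90 min the median change of the group in WT cells was 0.16 and 0.27 log2 units at 1 and 6 μg/ml CD40L. It was 1.27 and 1.33 at 1 and 10 μg/ml anti-IgM, the last a course of the choice. The part of drift was not tested.

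BCR ligation turns on several kinase cascades, among them the MEK-ERK pathway and the IKK-NF-κB pathway, and CD40 engages the IKK-NF-κB pathway strongly. Stimulated cells first transcribe immediate early genes, which need no new protein synthesis, and many of these encode transcription factors and feedback regulators. Delayed genes follow, often through the products of that first wave or through slower transcript accumulation. U0126 blocks MEK and with it ERK activation, and IKKβSA cells lack inducible IKKβ activity.

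No gene is named for these probe sets because the values did not bear out the pairing of the table's IDs with its rows. The 2 rows whose IDs stand for GAPDH, an abundant housekeeping transcript, read 2.71 and 2.01 intensity units at WT 0 min, against a column median of 2.74. Of the 4 rows whose IDs stand for ACTB, the gene of β-actin, another abundant transcript, 2 read 2.60 and 2.53 and 2 read 27.5 and 41.8. Rows with a mean log2 level above 5 numbered 6449. Among them the median correlation over columns was 0.31 for 1597 pairs of rows whose IDs stand for 1 gene. It was 0.08 for all pairs, which were not matched for level, so whether part of the pairing holds was not tested. For this reason no gene list, marker of the labelled cell type or sequence could be joined to the group. The probe sets are numbered from 1 to 93 by the size of their largest rise in the WT course with 10 μg/ml anti-IgM.

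In that course the largest rise fell at 90 min for 90 probe sets and at 60 min for 3. The median of the largest rise was 1.33 log2 units (2.52-fold) and the range ran from 1.00 to 3.53 log2 units, the highest being 11.5-fold. A rise of at least 1.5 log2 units was seen in 29 probe sets, of at least 2 in 8 and of at least 3 in 1. The level went up at every step from 15 to 90 min in 70 of the 93. At 30 min the median probe set had covered 20.7% of its largest rise, and 12 probe sets were at or under their WT 0 min level. The last probe set inside the 2-fold threshold had a rise of 1.002 log2 units and the first outside it 0.994, and at 30 min the nearest probe sets inside and outside had covered 37.5% and 40.9% of their rise. The lowest mean level inside was 1.12 log2 units, and 1 further row met every criterion except the level threshold.

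The late onset probe sets spanned a wide range of resting levels. Their RMA intensity at WT 0 min ran from 1.74 to 364 with a median of 17.3, against a median of 4.90 over all probe sets tested. Of the 93, 36 lay under 10 intensity units, against 61.6% of all probe sets tested. The median difference at 0 min was −0.09 log2 units for IKKβSA against WT cells and −0.05 for WT + Inh against WT cells, against 0.03 and 0.01 over all probe sets tested. At 0 min 5 probe sets were at least 2-fold lower in IKKβSA than in WT cells (0.167% of all probe sets tested), namely probe sets 4, 42, 43, 59 and 77, with differences of −1.49 to −1.10 log2 units. The WT 0 min column is 1 of those that chose the group.

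**Figure D1:**
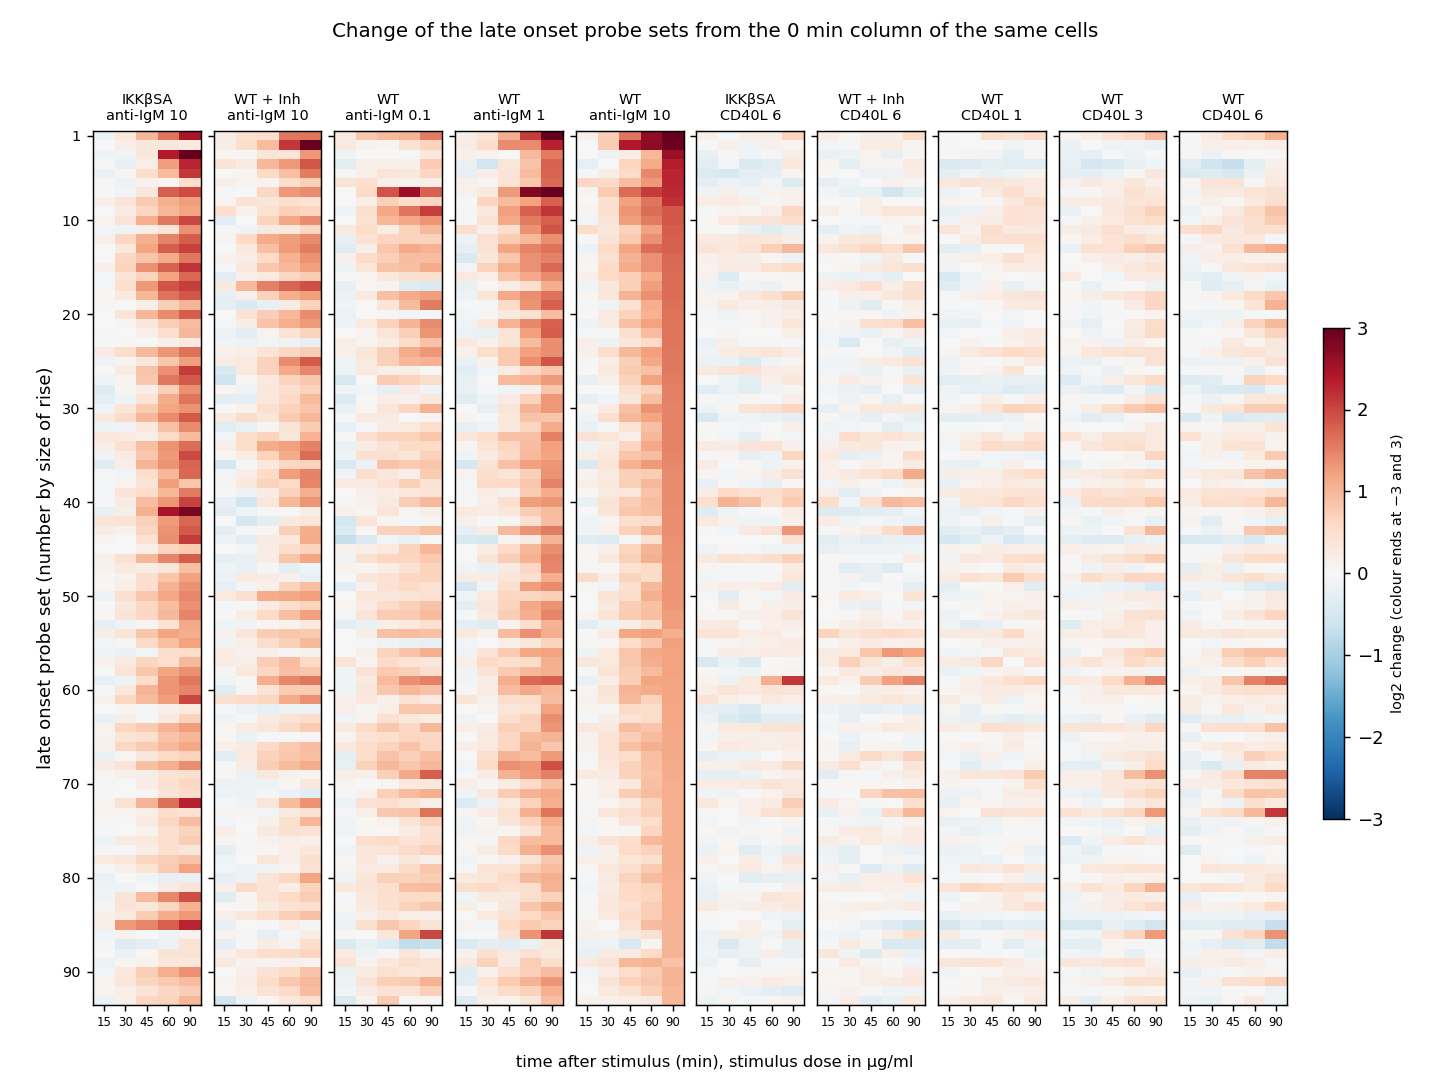
Change in log2 units of each of the 93 late onset probe sets (rows, numbered by the size of their rise) from the 0 min column of the same cells, at 15 to 90 min (x axis) in the 10 courses, with doses in μg/ml. The 5 anti-IgM panels darken towards 60 and 90 min, most fully in IKKβSA and in WT cells at 1 and 10 μg/ml, while most rows of the 5 CD40L panels stay pale.

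The same time pattern was seen in the other anti-IgM courses. At 15 min the median change of the 93 probe sets from the 0 min column of the same cells lay between −0.07 and 0.02 log2 units in all 5 anti-IgM courses, and at 30 min between 0.09 and 0.28. At 90 min the median was 1.36 in IKKβSA cells, 0.83 in WT + Inh cells, and 0.69, 1.27 and 1.33 in WT cells at 0.1, 1 and 10 μg/ml anti-IgM, with medians over all probe sets tested of −0.02 to 0.02. The 3 WT courses share the WT 0 min column with the choice of the group. A rise of at least 2-fold at 90 min was shown by 61 probe sets in IKKβSA cells (0.964% of all probe sets tested), by 35 in WT + Inh cells (0.502%), and in WT cells by 20 at the lowest anti-IgM dose (0.179%), 69 at the middle dose (0.607%) and 92 at the highest (0.689%, fixed by the choice). The remaining probe set had its 2-fold rise at 60 min.

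**Figure D2:**
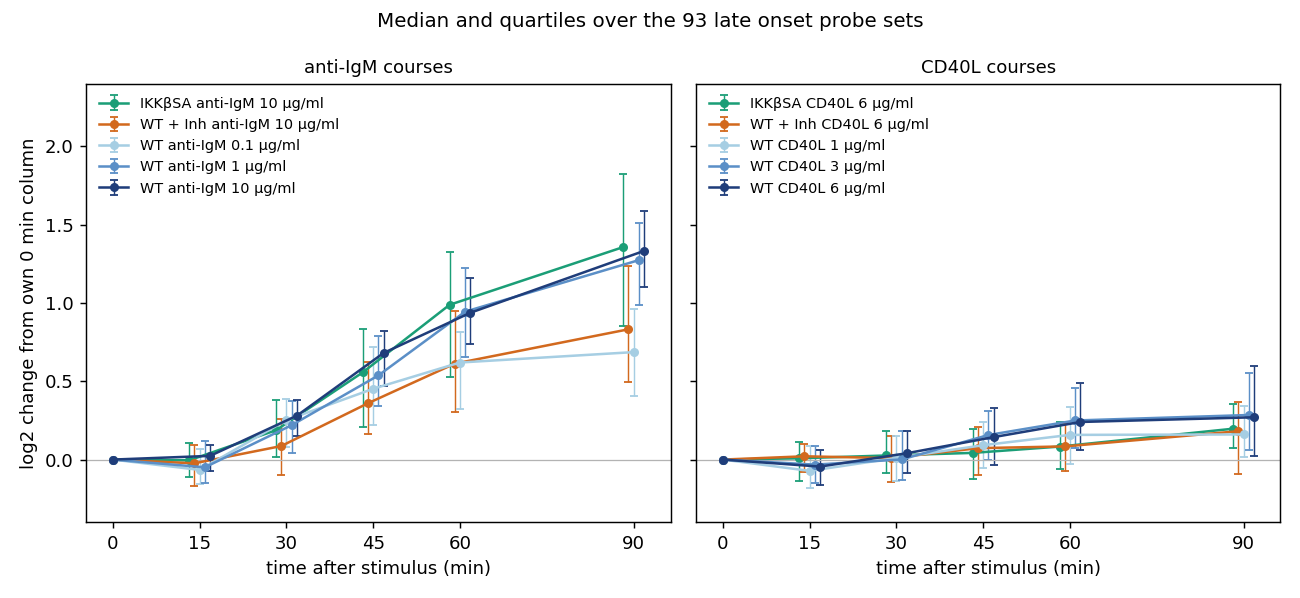
Median log2 change from the 0 min column of the same cells over the 93 late onset probe sets against time in min, for the anti-IgM courses (left) and the CD40L courses (right), with bars from the lower to the upper quartile and points shifted sideways for clarity. At 90 min the medians were 1.36 in IKKβSA, 0.83 in WT + Inh and 0.69 to 1.33 in WT cells after anti-IgM, and 0.16 to 0.28 in the 5 CD40L courses.

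To test the late rise in columns outside the rise criteria, the mean of the 60 and 90 min columns was compared with the mean of the 15 and 30 min columns within each course (late minus early, log2 units), in 1 limma fit with Benjamini-Hochberg adjustment over all 26866 probe sets. Late levels were higher in IKKβSA cells for 78 of the 93 probe sets (6.11% of all probe sets tested), with a median of 1.02, or for 77 of 92 without probe set 3. In WT + Inh cells they were higher for 64 (6.19%), with a median of 0.74. In WT cells they were higher for 44 at 0.1 μg/ml (1.6%) with a median of 0.53, and for 86 at 1 μg/ml (6.51%) with a median of 1.03. The medians over all probe sets tested were −0.01 to 0.01. No late onset probe set was called lower in these 4 courses, where 2.08% of all probe sets tested were called lower in IKKβSA, 2.5% in WT + Inh, and 5.59% and 3.98% in WT cells at 0.1 and 1 μg/ml. At an unadjusted p under 0.05, 2 late onset probe sets were lower at 0.1 μg/ml (12.3% of all probe sets tested) and 0 in IKKβSA (9.19%), in WT + Inh (9.53%) and at 1 μg/ml (9.5%). Of the 57 probe sets at 10 intensity units or above at WT 0 min, 56 were called higher in IKKβSA and 48 in WT + Inh cells, against 22 and 16 of the 36 dimmer probe sets. Shares over all probe sets of these levels were not computed, so this split may not be particular to the group. The error in this test is the scatter between columns of 1 stage of a course, so it holds part of the time trend and does not measure the spread between cultures. Without the 15 or the 90 min columns the count at 0.1 μg/ml was 27 or 24, and without the 90 min columns that of WT + Inh was 33.

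**Figure D3:**
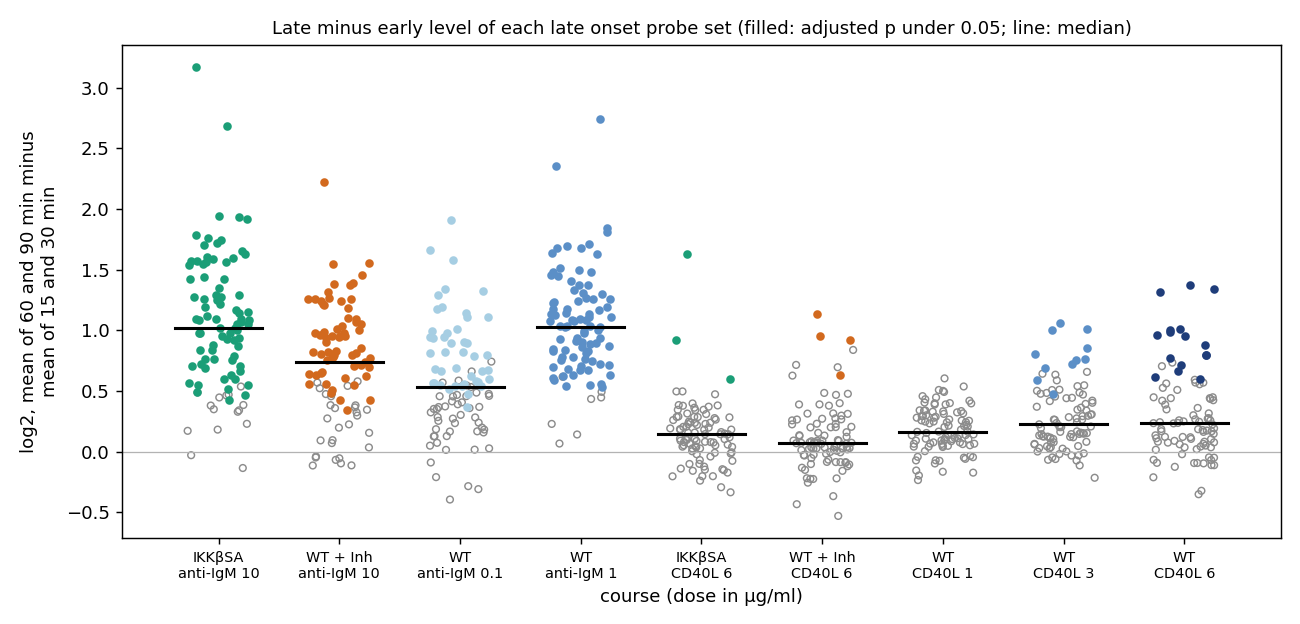
Late minus early level (mean of 60 and 90 min minus mean of 15 and 30 min, log2 units) of each of the 93 late onset probe sets in the 9 courses outside the rise criteria, with doses in μg/ml. Filled points passed the limma test at an adjusted p under 0.05 and black lines are medians, at 1.02 for IKKβSA, 0.74 for WT + Inh, and 0.53 and 1.03 for WT cells at 0.1 and 1 μg/ml anti-IgM.

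Across the 4 anti-IgM courses tested, 31 probe sets were called in all 4 (0.529% of all probe sets tested), 37 in 3 (1.54%), 16 in 2 (2.74%), 5 in 1 (8.19%) and 4 in none (87%). The 4 without a call were probe sets 57, 87, 88 and 89, singled out after their values were seen. Probe set 87 was at 32.7 at WT 0 min and at 29.1, 29.7, 23.8, 34.5 and 66.4 at 15, 30, 45, 60 and 90 min of 10 μg/ml anti-IgM in WT cells, so its membership rested on the 90 min column. At 90 min it reached 48.5 in IKKβSA cells and 27.9 in WT + Inh cells, and in WT cells 20.4 and 41.5 at 0.1 and 1 μg/ml. Probe set 89 stayed between 2.78 and 4.33 at every time in the WT courses with 0.1 and 1 μg/ml.

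The late timing was also kept where a probe set rose strongly. In IKKβSA cells 62 of the 93 rose at least 2-fold with the largest rise at 60 or 90 min, and 58 of these had covered under 0.4 of it at 30 min. In WT + Inh cells this held for 29 of 35, and in WT cells for 19 of 20 at 0.1 μg/ml and 69 of 71 at 1 μg/ml. Among probe sets outside the group with a late 2-fold rise in the same courses, the counts were 110 of 196 in IKKβSA, 46 of 98 in WT + Inh, and 11 of 23 and 35 of 81 in WT cells at 0.1 and 1 μg/ml. At 10 μg/ml in WT cells the count outside the group was 0 of 60 by the choice itself, so this comparison is partly fixed. Over all probe sets tested, the group included, the counts were 168 of 258 in IKKβSA and 75 of 133 in WT + Inh. In WT cells they were 30 of 43 and 104 of 152 at 0.1 and 1 μg/ml. No test was run on these shares, and the WT courses share their 0 min column with the choice.

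The strongest late riser, probe set 1, read 3.98 at WT 0 min and 4.43, 6.61, 12.0, 25.3 and 45.8 at 15, 30, 45, 60 and 90 min of 10 μg/ml anti-IgM in WT cells. In IKKβSA cells it read 4.07 at 0 min, then 3.66, 5.06, 8.17, 12.3 and 22.0. In WT + Inh cells it read 3.86 at 0 min, then 4.50, 5.28, 5.47, 11.6 and 11.8. Since the probe sets were chosen and numbered by their WT values at 10 μg/ml, those values are a description, and lower values in other courses are favoured by the choice. In WT cells it reached 11.6 at 90 min of 0.1 μg/ml and 36.5 at 90 min of 1 μg/ml. Its late minus early change was 1.94 in IKKβSA (adjusted p = 8.91e-06), 1.26 in WT + Inh (adjusted p = 0.00242), and in WT cells 0.74 at 0.1 μg/ml (adjusted p = 0.0846) and 2.36 at 1 μg/ml (adjusted p = 5.32e-07; limma).

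Probe sets 4 and 5 followed the same course as probe set 1 from higher resting levels, and both started lower in IKKβSA and WT + Inh cells than in WT cells. Probe set 4 read 4.36 in IKKβSA, 6.73 in WT + Inh and 11.4 in WT cells at 0 min, and 21.3 in IKKβSA, 24.5 in WT + Inh and 58.4 in WT cells at 90 min of 10 μg/ml anti-IgM. Probe set 5 read 10.8 in IKKβSA, 14.9 in WT + Inh and 19.6 in WT cells at 0 min, and 46.8 in IKKβSA, 43.5 in WT + Inh and 95.5 in WT cells at 90 min. Late minus early of probe set 4 was 1.92 in IKKβSA, 1.26 in WT + Inh, and 0.54 and 1.71 in WT cells at 0.1 and 1 μg/ml. That of probe set 5 was 1.60 in IKKβSA, 1.18 in WT + Inh, and 0.37 and 1.37 in WT cells at 0.1 and 1 μg/ml. For both, the IKKβSA, WT + Inh and 1 μg/ml values passed the test (highest adjusted p = 0.00326), and the values at 0.1 μg/ml did not. At 1 μg/ml the call of probe set 5 was lost without the 15 min columns (adjusted p = 0.0574).

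Probe sets 6, 7 and 8 rose from resting levels near the column median. Probe set 6 stood at 3.91 in IKKβSA and 4.88 in WT + Inh cells at 90 min of 10 μg/ml, against 11.8 in WT cells, with 2.71, 2.97 and 2.41 in the 3 cell conditions at 0 min. Its late minus early of 0.35 in IKKβSA (adjusted p = 0.241) and 0.48 in WT + Inh (adjusted p = 0.0912) did not pass. Probe set 7 had a lower peak at 10 μg/ml than at 0.1 or 1 μg/ml, and its highest at 1 μg/ml, on single columns. In WT cells it read 17.1 at 60 min and 9.62 at 90 min of 0.1 μg/ml, 19.5 and 24.0 at 1 μg/ml, and 12.0 and 13.3 at 10 μg/ml. Probe set 8 reached 6.46 at 90 min in IKKβSA cells and 3.27 in WT + Inh cells, against 10.8 in WT cells. Its late minus early was 0.88 in IKKβSA (adjusted p = 0.000393) and 0.22 in WT + Inh (adjusted p = 0.408).

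**Figure D4:**
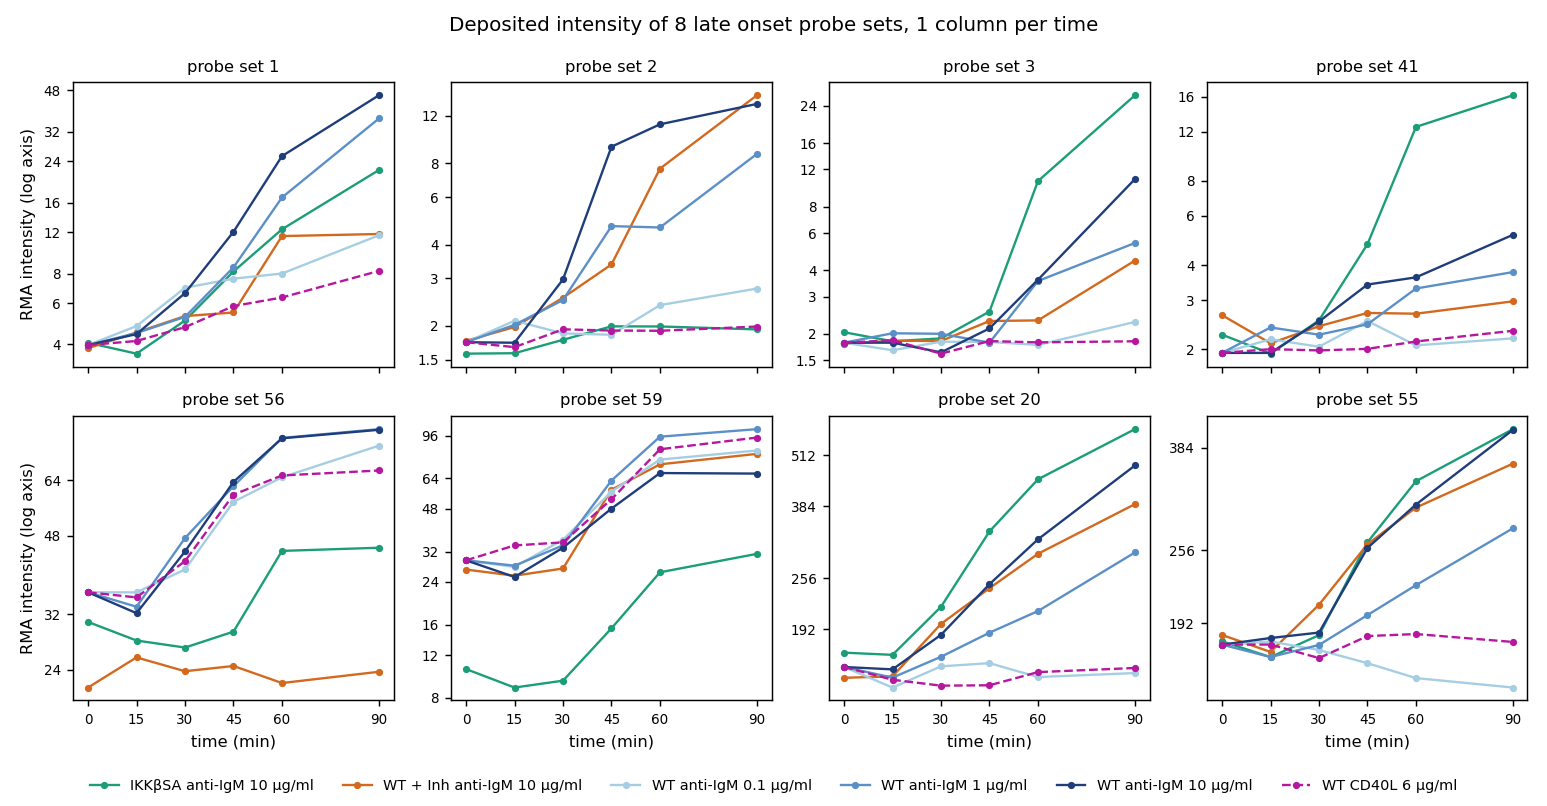
Deposited RMA intensity (log axis) against time in min for 8 late onset probe sets in 6 courses, 1 column per point, with the 0 min column of the same cells at the left. After anti-IgM, probe set 2 stays at or under 1.99 in IKKβSA and reaches 14.3 in WT + Inh cells, probe sets 3 and 41 climb highest in IKKβSA cells, and probe set 56 stays near its 0 min level in WT + Inh cells.

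The IKKβSA and WT + Inh courses with 10 μg/ml anti-IgM were compared with each other, since both lay outside the rise criteria. They differ in the cells and, by the labels, in the inhibitor at once, so the parts of IKKβ and MEK cannot be told apart. Whether IKKβSA cells were given the inhibitor too is unsettled, as stated above. The group was also chosen in WT cells, which the WT + Inh course shares and the IKKβSA course does not. Late minus early was larger in IKKβSA than in WT + Inh cells for 78 of the 93 probe sets, with a median difference of 0.32 log2 units, against −0.00 over all probe sets tested. Single probe sets passed the test of this difference rarely, 3 being higher (0.0558% of all probe sets tested) and 2 lower (0.00744%). Without probe set 3, which passed the level threshold only with its IKKβSA columns, 2 were higher and the median was 0.32. At an unadjusted p under 0.05 the counts were 32 higher (3.37%) and 2 lower (2.49%). Counted by course, 62 probe sets were called in both (3% of all probe sets tested), 16 in IKKβSA and not WT + Inh (3.11%), 2 in WT + Inh and not IKKβSA (3.2%), and 13 in neither (90.7%). Without the 15 min columns 1 probe set was called higher, without the 30 min columns 5, and with a stricter level threshold of 2 none. That threshold itself removed probe sets 3 and 41, with mean levels of 1.15 and 1.31 log2 units, so it did not test them.

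Probe sets 3 and 41 had the largest differences. Probe set 3 read 2.04 at 0 min in IKKβSA cells, then 1.85, 1.91, 2.55, 10.6 and 26.9 at 15, 30, 45, 60 and 90 min. In WT + Inh cells it read 1.79 at 0 min, then 1.86, 1.85, 2.30, 2.32 and 4.45. The rise in IKKβSA cells thus came mostly after 45 min and went on to 90 min, and the WT course with 10 μg/ml ended at 10.8. The difference in late minus early was 2.38 (SE 0.36). The level threshold favoured a high value of this probe set in IKKβSA cells, and the test of its difference is therefore given from the limma fit with no level threshold, over all 38361 probe sets (adjusted p = 0.000469). With the threshold the call was lost without the 15 min columns (adjusted p = 0.228) or the 30 min columns (adjusted p = 0.0532).

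Probe set 41 read 2.26 at 0 min in IKKβSA cells, then 1.93, 2.54, 4.75, 12.5 and 16.2, and 2.65 at 0 min in WT + Inh cells, then 2.10, 2.42, 2.70, 2.68 and 2.97. In WT cells it ended at 2.19, 3.78 and 5.13 at 90 min of 0.1, 1 and 10 μg/ml. Its level at 90 min in IKKβSA cells was thus above every WT column. The difference in late minus early was 2.36 (SE 0.17, adjusted p = 6.29e-10) and passed under each alternative that kept the probe set. Probe set 56 also differed, by 0.80 (SE 0.16, adjusted p = 0.0495). It read 44.4 and 45.2 at 60 and 90 min in IKKβSA cells, with 30.8 at 0 min, and 22.4 and 23.8 in WT + Inh cells, with 21.9 at 0 min. This call was lost under 6 alternatives.

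Probe sets 2 and 80 went the other way. Probe set 2 read 1.58 at 0 min in IKKβSA cells, then 1.59, 1.78, 1.99, 1.99 and 1.94, and 1.76 at 0 min in WT + Inh cells, then 1.98, 2.54, 3.38, 7.65 and 14.3. In IKKβSA cells it read at most 1.99, and its late minus early of 0.23 did not pass the limma test (adjusted p = 0.538). The WT + Inh course ended near the 13.3 of WT cells at 10 μg/ml. The difference was −1.99 (SE 0.28, adjusted p = 0.000769), with an adjusted p of 0.115 without the 15 min columns. Probe set 80 ended at 1.78 in IKKβSA cells, against 4.61 in WT + Inh cells, with 2.04 and 2.02 at 0 min. Its difference was −1.24 (SE 0.19, adjusted p = 0.00211), with an adjusted p of 0.0595 without the 15 min columns and 0.535 without the 90 min columns. Probe sets 2, 3, 41 and 80 all rested at 1.58 to 2.65 intensity units, at or under the column median, where a small change in intensity is a large change in log2 units.

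**Figure D5:**
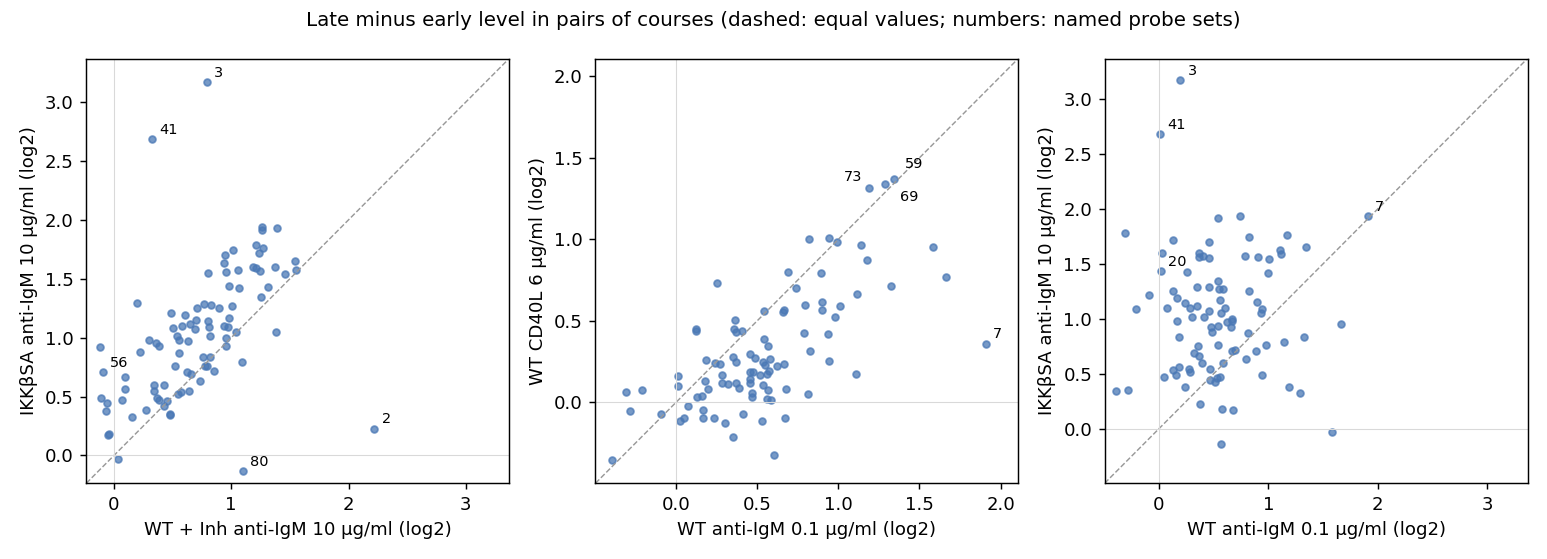
Late minus early level in log2 units of the 93 late onset probe sets in 3 pairs of courses, with the dashed line at equal values and numbers beside probe sets named in the text. In the left panel 78 of 93 points lie above the line, and probe sets 3 and 41 lie far above it and probe sets 2 and 80 far below; in the middle panel values at 0.1 μg/ml anti-IgM go with those at 6 μg/ml CD40L, and in the right panel they do not go with those of IKKβSA cells.

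The response to anti-IgM dose was examined between 0.1 and 1 μg/ml in WT cells, the doses outside the rise criteria. The group was chosen for its rise at 10 μg/ml, so a larger response at 1 than at 0.1 μg/ml is favoured by the choice. At 90 min, 91 of the 93 probe sets were higher at 1 than at 0.1 μg/ml. A limma fit of these 10 columns that took time as a factor gave 13 probe sets higher at 1 μg/ml (0.882% of all probe sets tested) and none lower (0.77%), with 51 higher (5.29%) and 0 lower (5.93%) at an unadjusted p under 0.05. The median dose effect was 0.20 log2 units, against −0.01 over all probe sets tested. This fit has 1 dose term for all times, so it averages the early and the late columns. A dose effect that changes with time enters its error, which does not measure the spread between cultures. Leaving out the 30 min columns gave 26 calls, the 60 min columns 7 and the 90 min columns 5. The largest effects belonged to probe sets 2 (0.86, SE 0.15), 3 (0.53, SE 0.12) and 16 (0.51, SE 0.11; highest adjusted p = 0.0211). Probe set 2 ended at 2.75 at 0.1 μg/ml and 8.67 at 1 μg/ml, and probe set 16 at 7.57 and 14.5. The call of probe set 3 was lost without the 60 min columns (adjusted p = 0.0871) or the 90 min columns (adjusted p = 0.0773), and that of probe set 16 without the 90 min columns (adjusted p = 0.0551).

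The late rise itself was larger at 1 than at 0.1 μg/ml in 89 of the 93 probe sets, a direction that the choice likewise favours. The median difference was 0.45 log2 units, against 0.02 over all probe sets tested. Of the 93, 2 passed the test as higher (0.0409% of all probe sets tested) and none was called lower (0.0149%). At an unadjusted p under 0.05, 44 were higher (8.3%) and 0 lower (4.92%). Probe set 6 had a difference of 1.42 (SE 0.25, adjusted p = 0.0176). Probe set 55 had a difference of 0.75 (SE 0.13, adjusted p = 0.0176). It read 176 at WT 0 min, then 179, 173, 164, 155 and 149 at 15, 30, 45, 60 and 90 min of 0.1 μg/ml, and 168, 176, 198, 223 and 279 at 1 μg/ml, so of these courses the one with 1 μg/ml ended above the 0 min level. The number called was 0 without the 30 min columns, 8 without the 60 min columns and 0 without the 90 min columns. Both probe sets also failed the test without the 15 min columns (adjusted p = 0.0764 and 0.0766), in a fit that called 2 others, and probe set 6 also with the WT course of 10 μg/ml added (adjusted p = 0.0605).

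After CD40L, between 0 and 16 late onset probe sets were called in a course. At 90 min the median change from 0 min was 0.20 log2 units in IKKβSA, 0.18 in WT + Inh, and 0.16, 0.28 and 0.27 in WT cells at 1, 3 and 6 μg/ml. A rise of at least 2-fold at 90 min was shown by 2 probe sets in IKKβSA (0.208% of all probe sets tested), by 4 in WT + Inh (0.462%), and in WT cells by 0, 5 and 9 at 1, 3 and 6 μg/ml (0.0112%, 0.119% and 0.167%). Late levels passed the limma test as higher for 3 probe sets in IKKβSA (0.476%), for 4 in WT + Inh (0.506%), and in WT cells for 0, 11 and 16 at 1, 3 and 6 μg/ml (0.547%, 1.73% and 0.677%). None was called lower, against 0.268% of all probe sets tested in IKKβSA, 0.551% in WT + Inh, and 0.0931%, 0.573% and 0.439% in WT cells at 1, 3 and 6 μg/ml. At an unadjusted p under 0.05, 13 were higher (4.83%) and 1 lower (4.97%) in IKKβSA, and 14 higher (5.66%) and 2 lower (6.2%) in WT + Inh cells. In WT cells the counts were 19 higher (9.02%) and 0 lower (4.45%) at 1 μg/ml, 35 higher (11.1%) and 0 lower (6.45%) at 3 μg/ml, and 38 higher (5.4%) and 0 lower (5.08%) at 6 μg/ml. At least 1 of the 5 CD40L courses called 18 probe sets (2.78% of all probe sets tested). These counts were sensitive to single times. Without the 15 or the 90 min columns they were 2 or 0 at 3 μg/ml, 8 or 3 at 6 μg/ml and 1 or 1 in IKKβSA, and they were 3 at 1 μg/ml without the 30 min columns and 7 in WT + Inh without the 60 min columns.

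Probe set 59 had the largest late rise after 6 μg/ml CD40L. In WT cells it read 29.5 at 0 min, then 33.9, 34.9, 52.5, 84.4 and 94.2. At 60 and 90 min of anti-IgM it read 76.5 and 83.4 at 0.1 μg/ml, 95.0 and 102 at 1 μg/ml, and 67.3 and 67.0 at 10 μg/ml. Late minus early was 1.37 in WT cells at 6 μg/ml (adjusted p = 0.000102). It also rose after CD40L in IKKβSA cells, to 45.6 at 90 min with 10.5 at 0 min, and in WT + Inh cells, to 74.3 at 90 min with 27.0 at 0 min.

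Probe sets 69 and 73 had smaller levels and late rises of similar size in the same course. Probe set 69 read 2.46 at WT 0 min and 2.51, 2.93, 3.56, 6.84 and 6.86 after 6 μg/ml CD40L in WT cells, with a late minus early of 1.34 (adjusted p = 2.26e-05). Probe set 73 read 3.47 at WT 0 min and 3.67, 4.61, 5.15, 6.91 and 15.2, with a late minus early of 1.31 (adjusted p = 0.0042). The call of probe set 73 was lost without the 15 min columns (adjusted p = 0.23) or the 90 min columns (adjusted p = 0.147). At 90 min of 10 μg/ml anti-IgM, probe set 69 stood at 4.13 in IKKβSA and 2.95 in WT + Inh cells, against 5.28 in WT cells, and probe set 73 at 4.72 and 5.10, against 7.40.

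Against WT cells, the late rise after 6 μg/ml CD40L differed by a median of −0.15 log2 units in IKKβSA and of −0.18 in WT + Inh cells, against −0.00 over all probe sets tested in both. No late onset probe set passed the test of either difference. Of all probe sets tested, 0% were higher in both and 0% in IKKβSA and 0.00744% in WT + Inh lower. At an unadjusted p under 0.05, IKKβSA gave 1 higher (1.94% of all probe sets tested) and 13 lower (1.74%) and WT + Inh 0 higher (2.38%) and 11 lower (2.89%). The median SE of these differences was 0.23, so that a single probe set with a difference of this size was not detectable here. The late rise at 6 against 1 μg/ml CD40L in WT cells likewise gave no call (0.0186% of all probe sets tested higher, 0.00744% lower), with 10 higher (2.64%) and 0 lower (4.24%) at an unadjusted p under 0.05, a median of 0.11, against −0.01 over all probe sets tested, and 1 call without the 60 min columns.

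Over the 15 columns of the WT CD40L courses, a slope over log2 dose with time as a factor was positive for 11 probe sets (2.04% of all probe sets tested) and negative for 2 (3.18%), the negative count being near what the share over all probe sets would give. As in the anti-IgM dose fit, 1 dose term served all times, with the same limits. Leaving out the 45, 60 or 90 min columns gave 6, 4 or 4 positive slopes. The steepest positive slopes were those of probe sets 13 (0.24, SE 0.03), 59 (0.23, SE 0.04) and 43 (0.23, SE 0.04; highest adjusted p = 0.00435), in log2 units per unit of log2 dose. Probe set 13 ended at 54.0, 70.0 and 86.2 at 90 min of 1, 3 and 6 μg/ml, and probe set 43 at 14.9, 28.8 and 28.5. The negative slopes were those of probe sets 92 (−0.06, SE 0.01, adjusted p = 0.0142) and 24 (−0.05, SE 0.01, adjusted p = 0.0194). Probe set 24 ended at 523, 503 and 439. Both negative calls were lost without the 45 or the 90 min columns, and that of probe set 24 also without the 60 min columns.

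The late rise was larger after 1 μg/ml anti-IgM than after 6 μg/ml CD40L in 88 of the 93 probe sets, with a median difference of 0.73 log2 units, against 0.01 over all probe sets tested. This difference passed the test as higher for 27 probe sets (0.618% of all probe sets tested) and as lower for none (0.532%), with 72 higher (7.5%) and 0 lower (4.91%) at an unadjusted p under 0.05, and the count was 8 without the 15 or without the 90 min columns. The group was chosen for a late rise after anti-IgM in WT cells, with no criterion on CD40L. A larger late rise after anti-IgM is therefore favoured by the choice, and these counts are no independent support for it. The doses of the 2 ligands are not on a common scale. The largest difference was that of probe set 7, which reached 24.0 at 90 min of anti-IgM and 3.89 at 90 min of CD40L (2.39, SE 0.26, adjusted p = 4.91e-06). Probe set 49 reached 20.4 after anti-IgM and stood at 5.60 after CD40L (1.96, SE 0.24, adjusted p = 2.7e-05). Probe set 1 stood at 36.5 and 8.21 (1.65, SE 0.37, adjusted p = 0.0189), and its call was lost without the 15, 30 or 90 min columns (adjusted p = 0.163, 0.117 and 0.0897).

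Each of the 16 probe sets called at 6 μg/ml CD40L in WT cells was also called at 0.1 μg/ml anti-IgM, against 28 of the other 77. Of all probe sets tested, 0.677% were called higher in this CD40L course and 1.6% in this anti-IgM course. The share called in both was not computed, so whether the overlap is particular to the group was not tested. The median late minus early of the 16 in WT cells was 1.13 at 0.1 μg/ml anti-IgM, against 0.46 in the other 77. At 1 μg/ml it was 1.36, against 0.93. With 10 μg/ml anti-IgM it was 0.78 in WT + Inh cells, against 0.71, and 0.81 in IKKβSA cells, against 1.05. In IKKβSA cells 13 of the 16 and 65 of the 77 were called. Over the 93 probe sets, late minus early at 0.1 μg/ml anti-IgM had a Pearson correlation of 0.67 with that at 6 μg/ml CD40L in WT cells (Spearman 0.64) and of −0.00 with that of IKKβSA cells at 10 μg/ml anti-IgM (Spearman 0.01). With that of WT + Inh cells at 10 μg/ml anti-IgM the correlation was 0.10 (Spearman 0.14), so a low value was not particular to IKKβSA cells. Both of these pairs also differ in dose. IKKβSA and WT + Inh cells at 10 μg/ml anti-IgM had a correlation of 0.51 (Spearman 0.66), and WT cells at 0.1 and 1 μg/ml of 0.69 (Spearman 0.68). These are descriptions over probe sets, which are not independent, and in each pair the courses share no column. Within the group, brighter probe sets were called more often in both courses of the overlap. Shares over all probe sets of such levels were not computed. Of the 57 at 10 intensity units or above at WT 0 min, 35 were called at 0.1 μg/ml anti-IgM and 13 at 6 μg/ml CD40L, against 9 and 3 of the 36 dimmer probe sets, and the part of resting level in the overlap was not tested.

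Probe set 20 was taken as an example after its values were seen. From a high level it rose at 10 μg/ml anti-IgM in each cell condition, but not at 0.1 μg/ml in WT cells. It read 168 at 0 min in IKKβSA cells, then 166, 218, 333, 447 and 593 after 10 μg/ml anti-IgM. In WT + Inh cells it read 146 at 0 min, then 147, 198, 242, 294 and 389. In WT cells at 10 μg/ml, a course of the choice, it rose 3.11-fold by 90 min. In WT cells at 0.1 μg/ml it read 138, 156, 159, 147 and 150.2, with 155 at 0 min, and at 6 μg/ml CD40L it ended at 155. Late minus early was 1.44 in IKKβSA cells (adjusted p = 4.8e-08) and 0.98 in WT + Inh cells (adjusted p = 5.02e-05). In WT cells it was 0.02 at 0.1 μg/ml (adjusted p = 0.969) and 0.69 at 1 μg/ml (adjusted p = 0.00111; limma).

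The courses were also read against their own 0 min columns in a spline fit over all 53 columns. Its F test has no direction, and higher or lower stands for the sign of the last column minus the 0 min column. Late onset probe sets were called higher in 82 cases in IKKβSA (7.53% of all probe sets tested) and in 72 in WT + Inh cells (7.42%) after anti-IgM. None was called lower, against 2.87% of all probe sets tested in IKKβSA and 4.28% in WT + Inh, and at an unadjusted p under 0.05 the spline test had 0 lower in IKKβSA (8.98%) and 1 in WT + Inh (10.4%). After CD40L, 18 were called higher (1.92%) and 1 lower (1.53%) in IKKβSA, and 17 higher (4.18%) and 2 lower (2.81%) in WT + Inh cells. The CD40L counts were 10 in IKKβSA and 11 in WT + Inh without the 45 min columns, and 5 in both without the 90 min columns. The error of this fit was pooled over all columns, those of the choice included.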

How the data were processed

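Total RNA of DT40 cells was hybridised to Affymetrix Chicken Genome arrays. The authors deposited 1 table of RMA-normalised intensity on a linear scale, 53 columns by 38361 probe sets, each column combining 2 biological replicates. RMA subtracts background, equalises the intensity distributions of the arrays and summarises probes, which compresses changes of dim probe sets and would hide a shift common to all transcripts. No detection calls were used, and column medians were 2.74 to 2.95. The version of RMA was not given in the sources used here. Values were taken to log2. Tests used limma 3.58.1 in R 4.3.3 with an intensity trend. The early and late fit had 45 columns and 18 residual degrees of freedom, the spline fit 53 columns and 20 (3 spline degrees of freedom, knots at 25 and 50 min), and the dose fits 4 and 9. A call means an adjusted p under 0.05. On simulated data, the late minus early test of the IKKβSA course recovered 82.1% of 1.5-fold and 98.5% of 2-fold changes, and the test of the IKKβSA and WT + Inh difference 49.3% and 91.0%. Each rate rests on 67 changed probe sets in a table of 26866, with 14 false calls in the first test and 10 in the other. In the data, the median SE of that difference was 0.23 for the late onset probe sets and 0.16 over all probe sets tested. The simulated rates therefore need not hold for the late onset probe sets. Probe sets 1 to 8 were named with full values, as were the 3 called probe sets with the largest effect in each direction of a difference or dose test and the 3 with the largest late rise at 6 μg/ml CD40L. The members and lists were chosen with earlier results of these data known.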

Additional observations from a re-analysis of the deposited data

Results flagged for a closer look

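Each of the following was picked out because the late rise differed between courses in a test of the difference itself. Between IKKβSA and WT + Inh cells after 10 μg/ml anti-IgM, 3 late onset probe sets had a larger rise in IKKβSA cells, namely probe set 3 by 2.38 log2 units, probe set 41 by 2.36 and probe set 56 by 0.80. Probe set 3 passed the level threshold only with its IKKβSA columns, so its place in the group is not independent of this difference. In the other direction 2 probe sets had a smaller rise in IKKβSA than in WT + Inh cells, probe set 2 with −1.99 and probe set 80 with −1.24. The call of probe set 56 was lost under 6 of 8 alternatives. Those of probe sets 3 and 80 were each lost under 2 of 7 and that of probe set 2 under 1 of 7, while that of probe set 41 was not lost. Between 1 and 0.1 μg/ml anti-IgM in WT cells, 2 probe sets rose more at 1 μg/ml, probe set 6 by 1.42 and probe set 55 by 0.75. Their calls were lost under 4 of 7 and 3 of 8 alternatives. In WT cells 27 probe sets rose more after anti-IgM at 1 μg/ml than after CD40L at 6 μg/ml. The group was chosen by its rise at 10 μg/ml anti-IgM in WT cells, which favours the direction of these last 2 comparisons.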

How the results depend on the processing

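No paired analysis was possible because each column combines 2 replicates and the column names carry no replicate numbers. No result changed its direction under the alternatives run. The group held 72 probe sets after centring of the columns on their medians, 80 with a level threshold of 2, 94 with none, and 75 or 112 with a 30 min share of 0.3 or 0.5. Counts of higher calls that moved by over 1.5 times were as follows. With centred columns the anti-IgM dose test called 8. With the level threshold of 2, late minus early called 1 at 1 μg/ml CD40L, the IKKβSA and WT + Inh difference 0 and the difference between anti-IgM doses 1, and that last count was also 1 with the WT course of 10 μg/ml added. The threshold of 2 took probe sets 2, 3, 6, 41 and 80 out before any test. Without the 15 min columns, late minus early called 27 at 0.1 μg/ml anti-IgM, 2 and 8 at 3 and 6 μg/ml CD40L and 1 in IKKβSA with CD40L, and the differences 1 for IKKβSA and WT + Inh and 8 for anti-IgM and CD40L. Without the 30 min columns, 1 μg/ml CD40L gave 3, the IKKβSA and WT + Inh difference 5, the difference between anti-IgM doses 0 and the anti-IgM dose test 26. Without the 45 min columns, the spline fit called 10 in IKKβSA and 11 in WT + Inh with CD40L, and the CD40L slope 6. Without the 60 min columns, late minus early called 7 in WT + Inh with CD40L, the difference between anti-IgM doses 8 and between CD40L doses 1, the anti-IgM dose test 7 and the CD40L slope 4. Without the 90 min columns, late minus early called 24 at 0.1 μg/ml anti-IgM, 33 in WT + Inh with anti-IgM, 0 and 3 at 3 and 6 μg/ml CD40L and 1 in IKKβSA with CD40L. The same omission gave 0 for the difference between anti-IgM doses, 8 for anti-IgM and CD40L, 5 in each spline test with CD40L, 5 for the anti-IgM dose test and 4 for the CD40L slope. Leaving out a time removes columns and error degrees of freedom together, and which of these moved a count was not tested. Shares over all probe sets are not given for the alternatives, here or above, so a moved count need not be particular to the group. The other 147 counts stayed within 1.5 times. For single named probe sets a call was lost in 34 runs, each being 1 result under 1 alternative, and none turned its sign. Several of these runs fell on the same result, 6 of them on that of probe set 56, and other named results were never lost. Precision is limited by 1 column per condition and time, and for the 36 probe sets under 10 intensity units by their low signal.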
